A study of Mus musculus with 6 samples.

Results

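The genes described here were listed for the blood vessels of the brain, and are called vascular genes below. There were 15 genes of endothelial identity, 10 genes of the blood-brain barrier and 9 genes of mural cells. Mural cells are the pericytes and smooth muscle cells on the outside of the vessel wall. The genes were taken from a list of 34 symbols and matched to the array by annotation, a rule that uses no measured value. That list was drawn up with earlier results of these data known. Of the 34, 33 had at least 1 array feature (a probe set designed for the transcript) annotated to that gene alone, and 32 were bright enough to be tested among 14067 genes in all. RNA came from brain tissue, given as cerebellum in the title of the series, of 3 wild-type mice and 3 Gb5-deficient mice, measured on 6 single-colour expression arrays. Gb5 is the product of Gnb5, a beta subunit of G proteins found mainly in neurons, where it is held in complexes with regulators of G protein signalling. The labels state no age, no promoter or cell type restriction of the deficiency and no treatment, and call the arrays of a genotype biological replicates of mice. They also state that littermates matched for age and sex were used, without saying which mice were littermates. The comparison made was Gb5-deficient (knockout) minus wild type for each vascular gene, and endothelial against mural genes.

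Brain capillaries are lined by endothelial cells that are sealed by tight junctions and carry selective transporters and efflux pumps, which together form the blood-brain barrier. Endothelial cells are kept in that state by signals from pericytes, astrocytes and neurons, and pericytes are recruited through platelet-derived growth factor receptor beta (Pdgfrb). On arterioles the outer layer is smooth muscle, which contracts through Acta2, Tagln and Myl9. In the cerebellum these vessels lie among far more numerous neurons, so vascular RNA is a small part of a tissue extract, and in such an extract fewer vascular cells and less RNA per vascular cell cannot be told apart.

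Gnb5, the targeted gene, was low on every array labelled knockout: it read 8.80, 8.51 and 8.70 on the wild-type arrays and 3.65, 3.36 and 2.96 on the knockout arrays (log2 signal, here and below, for arrays 1 to 3 and 4 to 6). Array medians lay between 6.48 and 6.57, and the 15 pairs of arrays correlated at 0.991 to 0.997 over all features. Cerebellar neuron markers were bright, with wild-type means of 12.62 for Pcp2, 12.98 for Calb1 and 11.57 for Car8. Knockout array 6 stood apart from the other 5. Its Y-linked Eif2s3y read 11.80 against 3.19 to 3.43, and 1 feature of Xist read 6.64 against 11.1 to 11.3, which goes against the labels' statement of matched sex. Its Gapdh control also had a 3' end brighter than the 5' end by 1.58, against 1.03 to 1.14, a measure of RNA integrity. For the vascular genes, the larger differences are therefore also given without array 6 where they rest on it.

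None of the 32 tested vascular genes passed an adjusted p of 0.05 in limma, and 5 of all 14067 genes did (0.0355%); the count over all genes was 2 without knockout array 6, 3 without wild-type array 2 or 3, 10 without wild-type array 1 and 8 with knockout array 4 left out. The smallest adjusted p among the vascular genes was 0.169, for Thbd. At an unadjusted p under 0.05, limma called 5 of 32 (15.6%), namely Thbd, Vwf, Sox17, Ocln and Kcnj8, against 8.57% of all genes. The wild-type and knockout arrays did not overlap, with knockout higher, for Vwf, Slc7a5 and Kcnj8 (3 of 32, 9.38%), against 10.1% of all genes. They did not overlap, with knockout lower, for Thbd, Sox17, Abcb1a and Ocln (4 of 32, 12.5%), against 4.82% of all genes. In total 13 vascular genes had a positive difference and 19 a negative one (59.4% negative, against 43.3% of all genes). Their median difference was -0.04 on the log2 scale, and that of all genes was 0.03. The medians were -0.04 for endothelial identity, -0.02 for the barrier and -0.05 for mural genes. For 21 of 32 (65.6%) the 95% interval lay within 0.5 of 0 on either side, against 73.6% of all genes, and the median SE was 0.12.

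**Figure D1:**
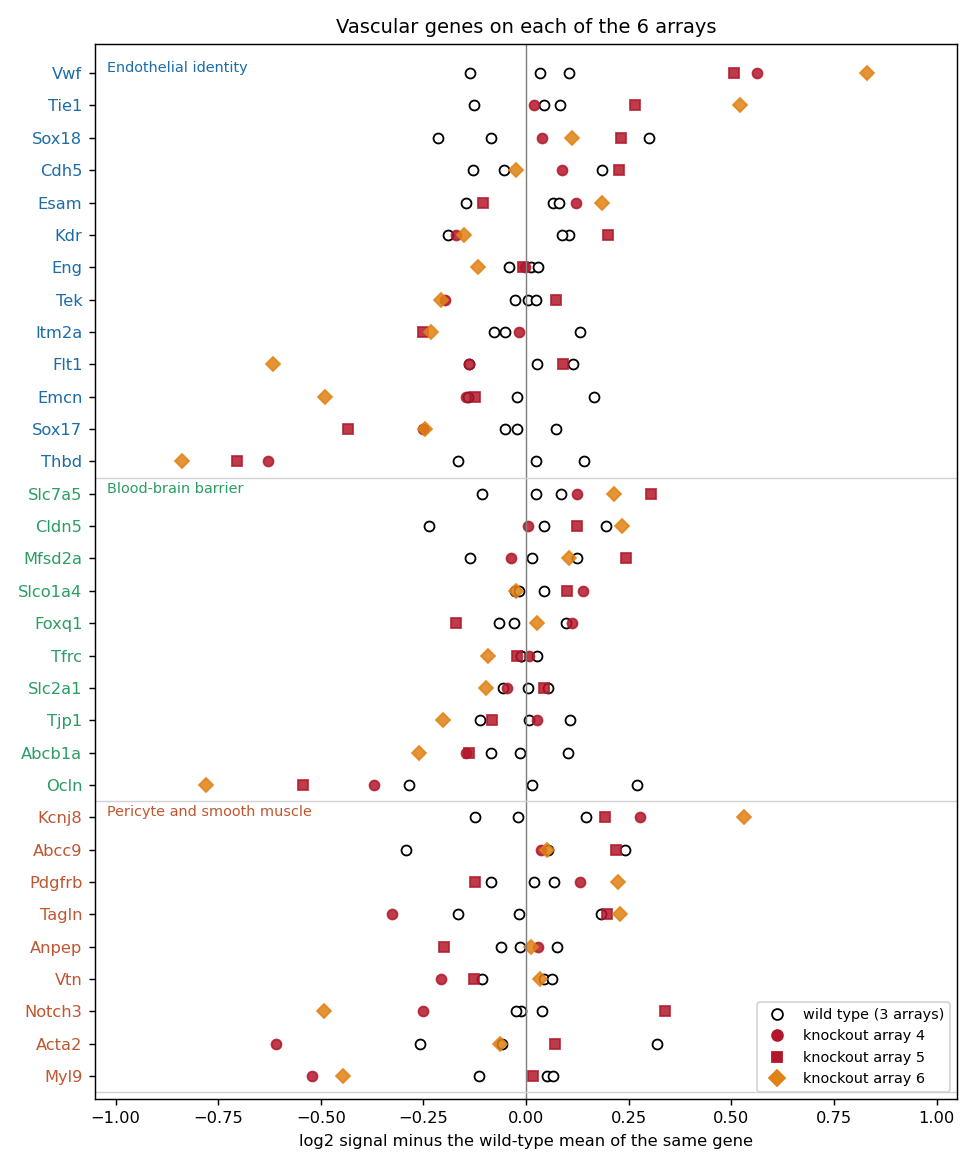
Log2 signal of the 32 tested vascular genes on each array, as the difference from the wild-type mean of the same gene (x axis, log2), with genes grouped by role and ordered by their difference (y axis). Open circles are the 3 wild-type arrays and filled symbols the 3 knockout arrays, with array 6 in orange. All knockout symbols lie to the left of the wild-type circles for Thbd, Sox17, Abcb1a and Ocln, and to the right for Vwf, Slc7a5 and Kcnj8. For every other gene the ranges of the genotypes overlap.

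Among the genes of endothelial identity, Thbd and Vwf had the largest differences of all 32 vascular genes, in opposite directions. Thbd encodes thrombomodulin, the endothelial receptor that turns thrombin towards activating the anticoagulant protein C. It read 9.76, 9.46 and 9.65 on the wild-type arrays and 8.99, 8.92 and 8.78 on the knockout arrays. Every knockout array was below every wild-type array, and array 6 was the lowest. The means were 9.62 ± 0.16 and 8.90 ± 0.11 (SD, n = 3 each), a difference of -0.72 (SE 0.11, 95% interval -0.98 to -0.46, limma adjusted p = 0.169). Leaving out each array in turn gave -0.81 to -0.65, and without array 6 the difference was -0.67 (limma adjusted p = 0.598). Vwf encodes von Willebrand factor, the glycoprotein that endothelial cells store and release to capture platelets. Its values were 7.01, 7.26 and 7.19 on the wild-type arrays and 7.71, 7.66 and 7.98 on the knockout arrays. All 3 knockout arrays were above all 3 wild-type arrays, and array 6 was the highest. The difference was 0.63 (SE 0.13, 95% interval 0.34 to 0.92, limma adjusted p = 0.273), and 0.53 without array 6.

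Marker lists of other cells were read on the same arrays. Of 15 tested genes of meninges and fibroblasts, 12 (80.0%, against 43.3% of all genes) had a negative difference and 6 (40.0%, against 8.57% of all genes) an unadjusted p under 0.05, and none passed an adjusted p of 0.05 in limma. The summed linear signal of these 15 genes was 19012 to 20141 in wild type and 16510 to 18533 in knockout, without overlap. Ccn3, a secreted matrix-associated protein, had a difference of -0.92 and Foxc2, a forkhead factor of mesenchyme, one of -0.66 (limma adjusted p = 0.169 for each). Of the 3 defining meningeal genes, the collagens Col1a1, Col1a2 and Col3a1 had differences of -0.11, 0.01 and 0.01. Of 5 tested red cell genes 4 had a negative difference, and their summed signal was 5469 to 6246 in wild type and 4079 to 4501 in knockout. The globin gene Hba-a2 had a positive difference (0.08), while Bpgm had one of -0.10 and the globin gene Hbb-b2 one of -0.60. Alas2, the first enzyme of haem synthesis in red cells, had a difference of -2.08 (limma adjusted p = 0.247), and Slc4a1, the red cell anion exchanger, one of -1.90 (limma adjusted p = 0.249). Without wild-type array 1 both passed in limma, with differences of -2.61 and -2.40. The part of meningeal cells and of blood in the values of Thbd and the other vascular genes was not tested.

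The transcription factors of endothelial identity were Sox17 and Sox18. Sox17, which acts in arterial endothelium, read 8.42, 8.55 and 8.45 on the wild-type arrays and 8.22, 8.04 and 8.23 on the knockout arrays. The genotypes did not overlap, and array 5 was the lowest. The difference was -0.31 (SE 0.10, limma adjusted p = 0.553). A much dimmer second feature of Sox17 gave 0.16, with the knockout arrays all higher, so the features separated the genotypes in opposite directions. The mean signal of that second feature was 3.64, below the 4.70 needed for a gene to be tested. Sox18 had a difference of 0.13 (SE 0.15), with overlapping arrays.

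The receptor genes showed differences no larger than 0.27 at their brightest features. Kdr, the main signalling receptor for vascular endothelial growth factor, had a difference of -0.04 (SE 0.14), and Tek, the angiopoietin receptor, one of -0.11 (SE 0.10). Tie1, the related receptor that modulates Tek, read 6.31, 6.52 and 6.48 on the wild-type arrays and 6.46, 6.70 and 6.96 on the knockout arrays. Its groups overlapped, and its difference of 0.27 (limma adjusted p = 0.612) was 0.14 without array 6. Flt1, a receptor that binds the same growth factor with high affinity and restrains its signalling, read 9.88, 9.62 and 9.79 on the wild-type arrays and 9.62, 9.85 and 9.15 on the knockout arrays. Array 6 was well below the wild-type arrays of Flt1, and the other knockout arrays were level with them. Its difference of -0.22 (limma adjusted p = 0.675) was -0.02 without array 6. Eng, a co-receptor for transforming growth factor beta, had a difference of -0.04 (SE 0.10) at its brightest feature.

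Of the endothelial surface and junction genes, Cdh5, the cadherin of endothelial adherens junctions, had a difference of 0.10 (SE 0.13) and Esam, an adhesion molecule of endothelial tight junctions, one of 0.07 (SE 0.12). Itm2a, a membrane protein enriched in brain endothelium, had a difference of -0.17 (SE 0.11). Emcn, a sialomucin of capillary and venous endothelium, read 7.41, 7.10 and 7.22 on the wild-type arrays and 7.10, 7.12 and 6.75 on the knockout arrays. Array 6 alone lay well below the wild-type arrays, and the difference of Emcn was -0.25 (limma adjusted p = 0.612), or -0.14 without array 6. Pecam1, the adhesion molecule at endothelial contacts, was below the filter and was not tested among the genes. It read 4.32, 4.06 and 4.45 on the wild-type arrays and 4.46, 4.87 and 4.31 on the knockout arrays, so its groups overlapped. Ly6c1, a surface protein of brain endothelium, has on this array only a feature shared with its near-identical neighbour Ly6c2. That feature read 9.86, 9.65 and 9.55 on the wild-type arrays and 9.57, 9.52 and 9.48 on the knockout arrays, and cannot be assigned to either gene.

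**Figure D2:**
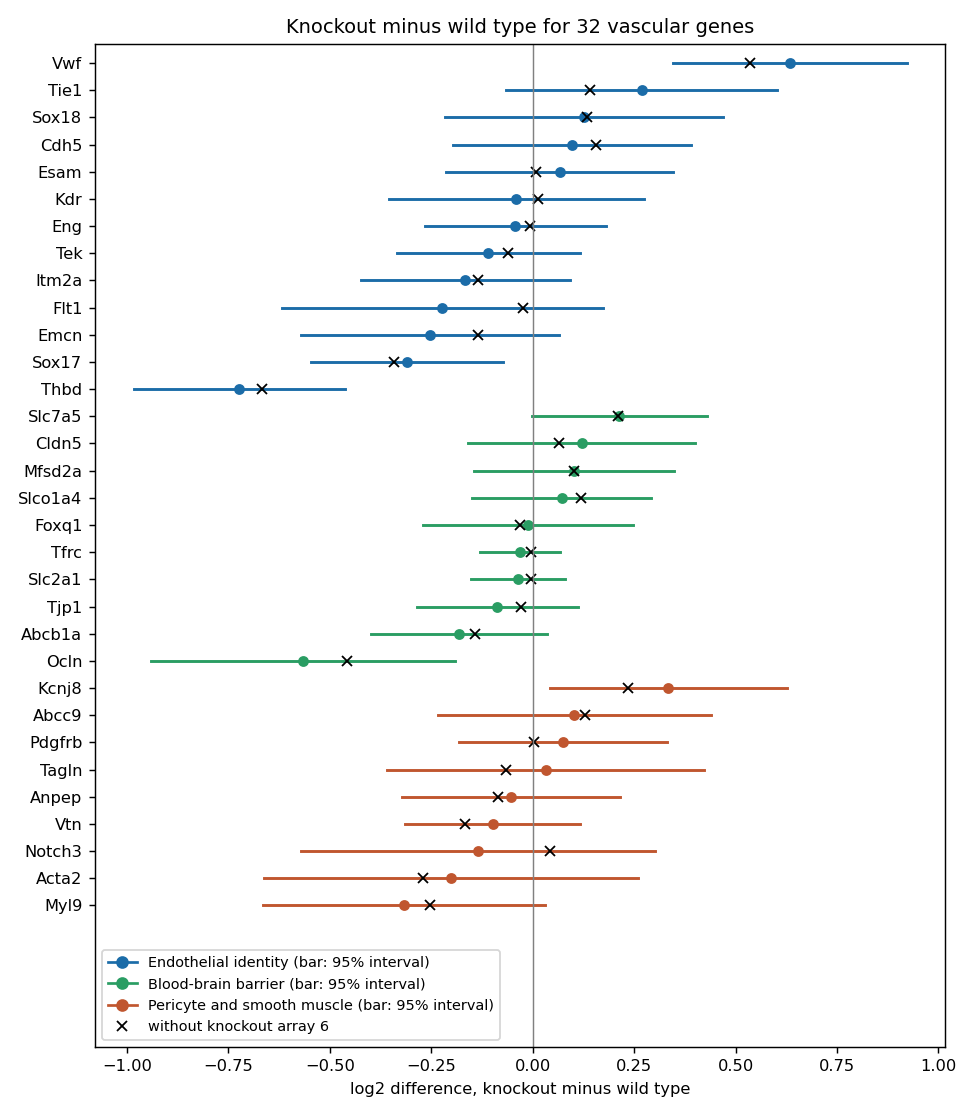
Log2 difference, knockout minus wild type (x axis), for the 32 tested vascular genes (y axis), with the 95% interval of the limma fit as a bar and the value without knockout array 6 as a cross. The intervals of Thbd, Sox17 and Ocln lie below 0 and those of Vwf and Kcnj8 above it; for Flt1 the cross lies at -0.02, close to 0.

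Sequence upstream of these genes was available from RefSeq (GRCm38.p6) for 23 of the 34 by symbol, 16 endothelial or barrier genes and 7 mural genes. Cdh5, Esam, Foxq1, Pdgfrb, Pecam1, Slc7a5, Sox17, Sox18, Tagln, Thbd and Vwf were not matched. Factors of the ETS family, such as Erg and Fli1, are known regulators of endothelial genes and bind a core of GGAA. The letters AGGAAG, or CTTCCT for the other strand, were searched in the 250 bases before each start site, counting overlapping matches. They were present at 9 of the 16 endothelial or barrier genes and at 0 of the 7 mural genes, against 29.5% of 32851 promoters. A gene was counted if any of its promoters matched, with 26 promoters for these 23 genes, while the percentages are of single promoters. At 7 of the 16 there were 2 or more matches, against 6.25% of all promoters; in Itm2a and Ly6c1 some of these overlap each other. Flt1 and Emcn are shown as receptor and surface examples with 2 matches each, in capitals. The Flt1 window is chr5:147726012-147726261 on the minus strand, with matches at -129 to -124 and -53 to -48 counted from the start site, and that of Emcn is chr3:137340828-137341077 on the plus strand, with matches at -174 to -169 and -93 to -88. A match describes these letters and is no evidence of binding.
Flt1: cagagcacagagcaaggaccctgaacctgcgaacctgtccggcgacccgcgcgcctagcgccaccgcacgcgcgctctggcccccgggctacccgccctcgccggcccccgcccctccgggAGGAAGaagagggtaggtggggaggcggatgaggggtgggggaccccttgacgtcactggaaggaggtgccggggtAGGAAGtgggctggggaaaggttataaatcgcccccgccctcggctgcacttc
Emcn: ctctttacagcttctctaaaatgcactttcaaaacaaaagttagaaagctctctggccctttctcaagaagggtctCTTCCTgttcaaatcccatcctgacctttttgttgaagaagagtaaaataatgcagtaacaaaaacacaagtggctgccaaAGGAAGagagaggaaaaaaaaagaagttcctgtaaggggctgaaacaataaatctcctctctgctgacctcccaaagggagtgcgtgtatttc

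The genes of the blood-brain barrier differed little between genotypes: for 9 of 10 the 95% interval lay within 0.5 of 0. These are values of the whole tissue extract, and the part of cells other than vessel cells in them was not tested. Among the tight junction genes, Cldn5, the main claudin of brain endothelium, read 10.23, 10.66 and 10.51 on the wild-type arrays and 10.47, 10.59 and 10.70 on the knockout arrays. The ranges overlapped, and array 1 was the lowest of the 6. The difference was 0.12 (SE 0.12, 95% interval -0.16 to 0.40). Tjp1, the scaffold protein that ties claudins to actin, had a difference of -0.09 (SE 0.09, 95% interval -0.28 to 0.11). Ocln, encoding the tight junction protein occludin, was the exception. It read 8.70, 8.15 and 8.45 on the wild-type arrays and 8.06, 7.89 and 7.65 on the knockout arrays. The genotypes did not overlap, but array 2 and array 4 lay close together. The difference was -0.57 (SE 0.16, 95% interval -0.94 to -0.19, limma adjusted p = 0.505), or -0.46 without array 6. A second, dimmer feature of Ocln gave -0.03.

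The differences of the transporter genes of the barrier lay between -0.18 and 0.21. Slc2a1, the glucose transporter of brain endothelium, read 13.23, 13.12 and 13.18 on the wild-type arrays and 13.13, 13.22 and 13.08 on the knockout arrays. Its groups overlapped, with a difference of -0.04 (SE 0.05, 95% interval -0.15 to 0.08). Tfrc, the transferrin receptor that carries iron across the barrier, had a difference of -0.03 (SE 0.04). Both features were at the 99.6th percentile of mean signal, and whether differences are compressed at such a signal was not tested. Slc7a5, the carrier of large neutral amino acids, read 9.93, 10.06 and 10.12 on the wild-type arrays and 10.16, 10.34 and 10.25 on the knockout arrays. The knockout arrays were all higher, by a small margin, with a difference of 0.21 (SE 0.09, limma adjusted p = 0.584). Abcb1a, the efflux pump P-glycoprotein, read 9.70, 9.89 and 9.77 on the wild-type arrays and 9.64, 9.65 and 9.52 on the knockout arrays. The knockout arrays were all lower, also by a small margin. The difference was -0.18 (SE 0.10, limma adjusted p = 0.612). The second, dimmer feature of Abcb1a gave -0.20 without separating the genotypes, as wild-type array 2 and knockout array 4 both read 7.37. Mfsd2a, the lipid transporter that restrains transcytosis in brain endothelium, had a difference of 0.10 (SE 0.11). Slco1a4, an organic anion transporter, had a difference of 0.07 (SE 0.10), and Foxq1, a forkhead factor enriched in brain endothelium, one of -0.01 (SE 0.11).

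**Figure D3:**
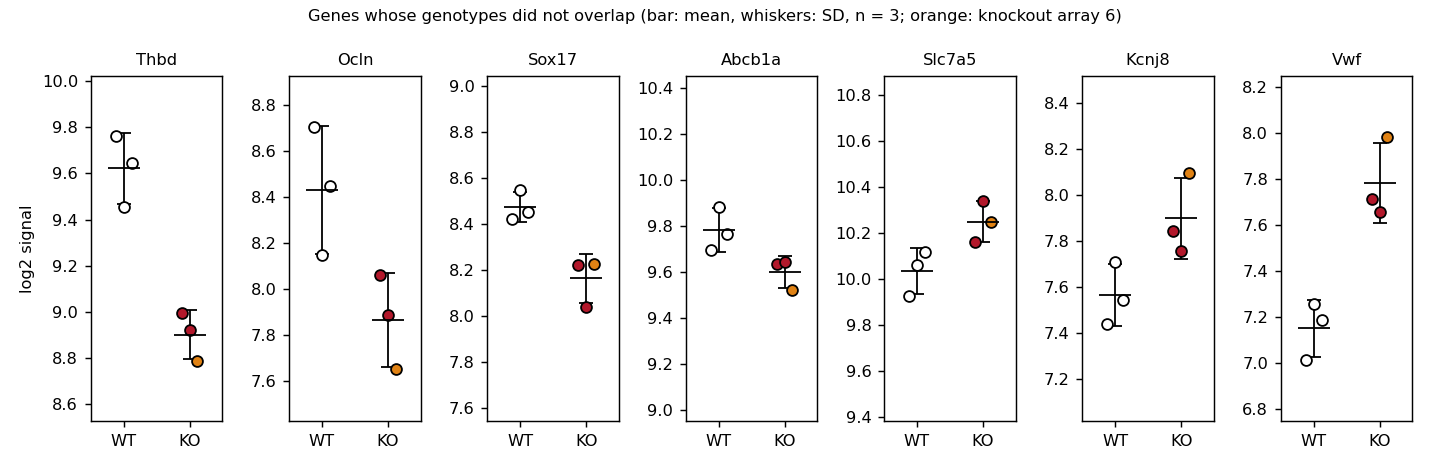
Log2 signal (y axis, the same span in each panel) of the 7 vascular genes whose wild-type (WT, open) and knockout (KO, filled) arrays did not overlap. Points are arrays, the bar is the mean and the whiskers are the SD (n = 3); knockout array 6, in orange, is the lowest point for Thbd, Ocln and Abcb1a and the highest for Kcnj8 and Vwf.

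The contractile genes of the mural list varied between arrays of the same genotype, and they shared their lowest arrays. Acta2, the smooth muscle actin, read 10.01, 9.43 and 9.63 on the wild-type arrays and 9.08, 9.76 and 9.63 on the knockout arrays. Tagln, an actin-binding protein of smooth muscle, read 7.02, 6.67 and 6.82 on the wild-type arrays and 6.51, 7.03 and 7.07 on the knockout arrays. Myl9, a regulatory light chain of smooth muscle myosin, read 8.26, 8.09 and 8.27 on the wild-type arrays and 7.69, 8.22 and 7.76 on the knockout arrays. For all 3 genes, array 2 was the lowest wild-type array and array 4 the lowest knockout array, and the genotypes overlapped. The differences were -0.20 for Acta2 (SE 0.20), 0.03 for Tagln (SE 0.17) and -0.32 for Myl9 (SE 0.15, limma adjusted p = 0.599). Without array 4 the difference of Acta2 was 0.00 (0.0036). The mean deviation of the 3 contractile genes from their wild-type means was 0.18, -0.18 and 0.00 (-0.0038) on the wild-type arrays and -0.49, 0.09 and -0.09 on the knockout arrays. For the 12 tested choroid plexus genes it was 1.10, -0.54 and -0.56 on the wild-type arrays and -1.09, 0.29 and 0.57 on the knockout arrays, so array 4 was lowest, and array 1 highest, in both lists. The meninges and fibroblast list had the same lowest and highest arrays, at -0.36 on array 4 and 0.04 on array 1. Red cell (-0.99) and microglia (-0.16) lists were also lowest on array 4, and the astrocyte list was not. The summed signal of the choroid plexus genes was 12497 to 18597 in wild type and 4741 to 16725 in knockout, with 7 of 12 genes negative. Of its 3 defining genes, Ttr, the thyroxine carrier of the choroid plexus, read 13.79, 13.49 and 13.38 on the wild-type arrays and 11.69, 13.54 and 13.74 on the knockout arrays. Kl and Folr1 were dim, with wild-type means of 5.14 and 5.61. The part of choroid plexus, meninges or other cells in the contractile genes was not tested.

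Serum response factor binds the CArG box, and contractile genes of smooth muscle are known targets of it. The CArG box was searched in the same 250-base windows, exactly or with 1 C or G among its central bases; it reads the same on both strands. It was present at 2 of the 7 mural genes with a sequence, Acta2 and Myl9, and at 4 of the 16 endothelial or barrier genes (Eng, Kdr, Ocln and Slco1a4). Of all promoters, counted singly as above, 8.59% held it in this form and 1.47% exactly. Acta2 and Myl9, the contractile genes with a sequence, are shown because they share their lowest arrays, with the matches in capitals. Tagln shares these arrays too but had no sequence. A link between the matches and that array pattern was not tested. In Acta2 (chr19:34255374-34255623, minus strand) the matches lie at -84 to -75 and -34 to -25, each with 1 central C or G. In Myl9 (chr2:156775214-156775463, plus strand) they lie at -161 to -152, an exact match, and at -99 to -90, with 1 central C or G.
Acta2: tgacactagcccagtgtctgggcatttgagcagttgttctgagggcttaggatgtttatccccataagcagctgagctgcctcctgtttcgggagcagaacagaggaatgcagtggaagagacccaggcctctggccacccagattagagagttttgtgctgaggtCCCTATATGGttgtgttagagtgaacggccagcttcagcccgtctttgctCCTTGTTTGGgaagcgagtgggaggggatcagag
Myl9: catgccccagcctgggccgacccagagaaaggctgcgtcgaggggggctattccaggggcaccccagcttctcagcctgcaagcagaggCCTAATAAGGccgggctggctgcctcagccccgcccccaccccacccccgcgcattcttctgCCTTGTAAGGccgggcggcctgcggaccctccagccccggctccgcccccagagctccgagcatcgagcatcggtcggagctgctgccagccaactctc

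Kcnj8 and Abcc9 encode the pore and the sulfonylurea receptor of the ATP-sensitive potassium channel of pericytes and smooth muscle, and lie next to each other on chromosome 6 with 0 protein-coding genes between them. Kcnj8 read 7.44, 7.71 and 7.54 on the wild-type arrays and 7.84, 7.76 and 8.10 on the knockout arrays. The knockout arrays were all higher, although array 5 exceeded array 2 by little. The difference was 0.33 (SE 0.13, 95% interval 0.04 to 0.63, limma adjusted p = 0.574), and 0.24 (0.235) without array 6. Abcc9 read 7.72, 7.18 and 7.53 on the wild-type arrays and 7.51, 7.70 and 7.53 on the knockout arrays. Its groups overlapped, with a difference of 0.10 (SE 0.15), so the subunits of this channel did not both separate the genotypes.

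The other genes of the mural list, among them genes of pericytes, overlapped between genotypes at their brightest features. Pdgfrb, the receptor that recruits pericytes, read 9.81, 9.86 and 9.70 on the wild-type arrays and 9.92, 9.66 and 10.01 on the knockout arrays. Both groups lay within a narrow range, with a difference of 0.07 (SE 0.11, 95% interval -0.18 to 0.33). The second, dimmer feature of Pdgfrb read 8.20, 8.20 and 8.16 on the wild-type arrays and 8.26, 8.61 and 8.38 on the knockout arrays. There the knockout arrays were all higher, with a difference of 0.23 (limma adjusted p = 0.689 over all features). Vtn, encoding vitronectin, a matrix protein made by brain pericytes, had a difference of -0.10 (SE 0.09), and Anpep, the peptidase CD13 of the pericyte surface, one of -0.05 (SE 0.12). Notch3, the Notch receptor of mural cells, read 8.93, 8.92 and 8.98 on the wild-type arrays and 8.69, 9.28 and 8.45 on the knockout arrays. The knockout arrays of Notch3 lay on both sides of the wild-type arrays, with an SD of 0.43 against 0.03 (n = 3 each), and the difference was -0.14 (SE 0.19), or 0.04 without array 6.

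The endothelial and barrier genes together were set against the mural genes array by array. The mean deviation of the 23 endothelial and barrier genes minus that of the 9 mural genes was -0.04, 0.04 and 0.01 on the wild-type arrays and 0.12, -0.07 and -0.10 on the knockout arrays. Array 4 was the highest and array 6 the lowest, both knockout, so the genotypes overlapped. The median difference was -0.04 for the 23 endothelial and barrier genes, -0.20 for the 3 contractile genes and 0.01 for the other 6 mural genes. Wild-type means of single genes ranged from 5.47 (Anpep) to 13.18 (Slc2a1), but features differ in how they bind, so no gene's level was set against another's. Within wild type, array 2 was the lowest array for 17 of 32 vascular genes (53.1%), against 29.7% of all genes. Within knockout, array 6 was the lowest for 13 of 32 (40.6%), against 29.9% of all genes, and for 6 of the 10 barrier genes.

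**Figure D4:**
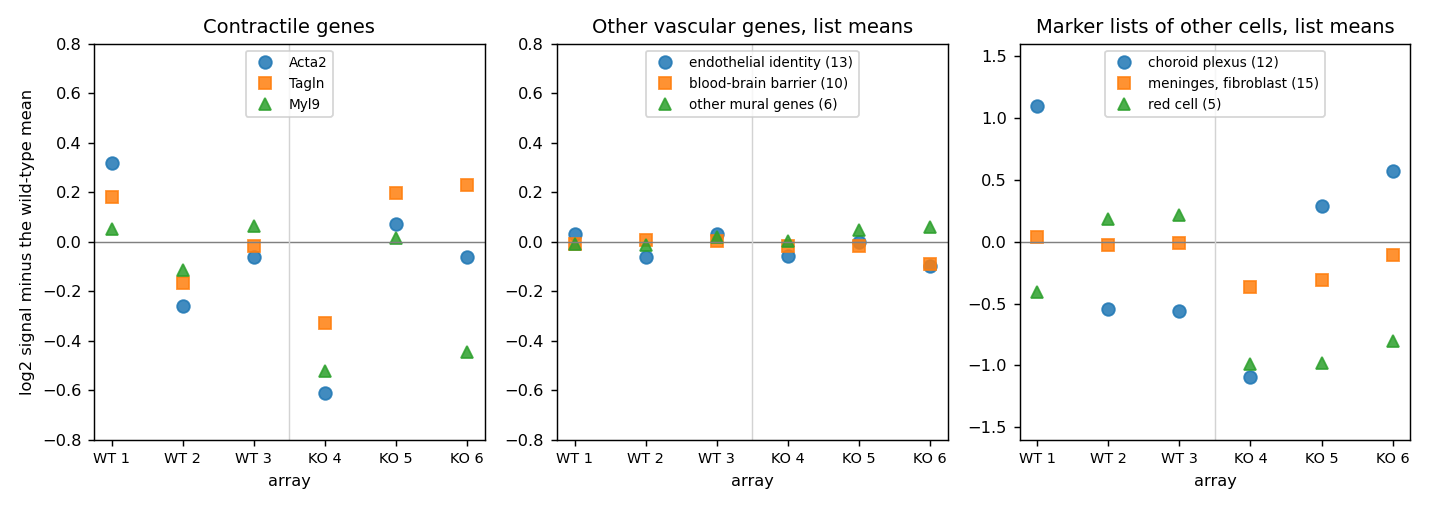
Log2 signal minus the wild-type mean (y axis) on each array (x axis; WT wild type, KO knockout) for the 3 contractile genes, for the means of the other vascular lists, and for the means of 3 marker lists of other cells, with the number of genes in each list in parentheses. The contractile genes and the means of all 3 marker lists of other cells are lowest on knockout array 4. The means of the other vascular lists stay between -0.10 and 0.06 on every array, and the third panel has a wider y axis.

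For 15 vascular genes the array held more than 1 single-gene feature, and these gave differences of both signs for 6 of them: Acta2, Cdh5, Eng, Flt1, Sox17 and Tfrc. For Acta2, Cdh5 and Sox17 the features of opposite sign had mean signals of 3.07 to 3.82, below the filter of 4.70 used for genes. Over all 54 features of the vascular genes, 0 passed an adjusted p of 0.05 in limma, against 0.0222% of all 45037 features, and 8 (14.8%) had an unadjusted p under 0.05, against 7.61% of all features. Flt1 had the widest spread. Of its 4 features, 3 gave -0.27, -0.12 and -0.22, and the dimmest read 5.62, 5.81 and 5.73 on the wild-type arrays and 6.33, 6.33 and 6.24 on the knockout arrays. At that feature all knockout arrays were higher, with a difference of 0.58 (limma adjusted p = 0.38 over all features). Flt1 is known to give a full-length and a shorter, soluble transcript, and which of these each feature reads was not analysed here.

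**Figure D5:**
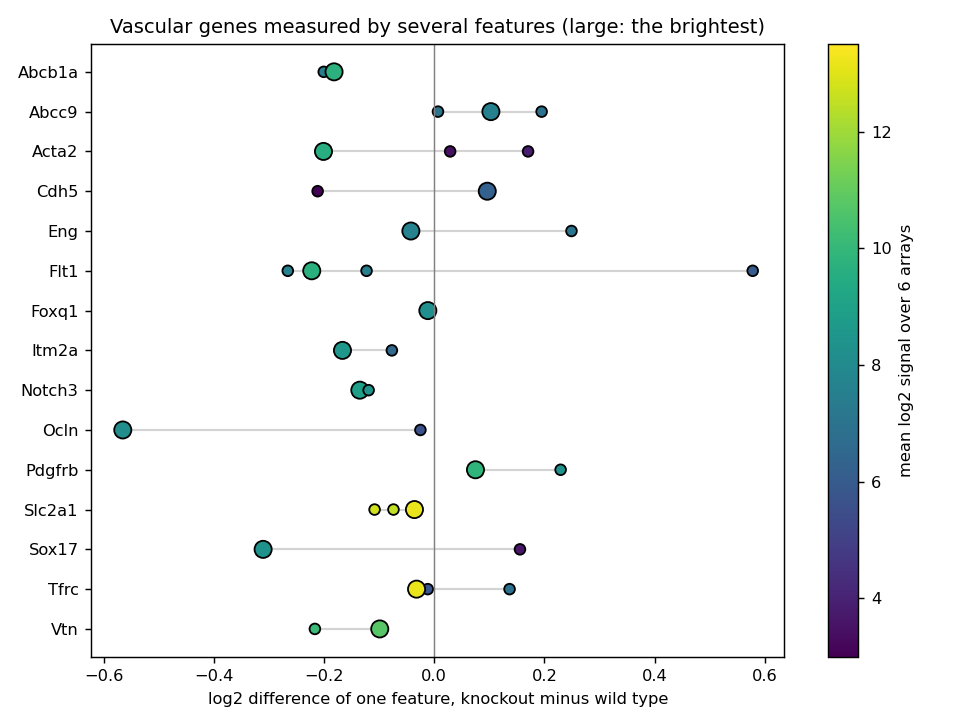
Log2 difference, knockout minus wild type (x axis), of every single-gene feature of the 15 vascular genes with several features (y axis), coloured by mean log2 signal over the 6 arrays. The large symbol is the brightest feature, used for the gene; the features of Flt1 run from -0.27 to 0.58 and those of Ocln from -0.57 to -0.03.

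Other genes of vascular pathways were taken from 10 lists with 142 genes in all, of which 130 were tested. None passed an adjusted p of 0.05 in limma, 10 of 130 (7.69%, against 8.57% of all genes) had an unadjusted p under 0.05, and 56 had a positive and 74 a negative difference, with a median of -0.03. The knockout arrays were all higher for 8 (6.15%, against 10.1% of all genes) and all lower for 7 (5.38%, against 4.82%). All values of single genes that follow are differences with a limma adjusted p of 0.472 or more.

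Among growth signals, 6 of 18 genes had a positive and 12 a negative difference. The 2 largest were those of Vegfc, a growth factor of lymphatic and blood endothelium (-0.32), and Apln, a peptide of sprouting endothelial tips (-0.30). For Apln array 6 was well below the other knockout arrays, at 5.76 against 6.40 and 6.19 on arrays 4 and 5. Of 11 Notch pathway genes 6 were positive and 5 negative, and the transcriptional targets Hey2 (-0.40) and Heyl (0.34) had opposite signs. The dimmer features of Heyl gave 0.06 and 0.03, with overlapping arrays. Of 13 genes of the Wnt signal that induces the barrier, 3 were positive and 10 negative. The largest differences there were those of Tspan12 (-0.28) and Fzd4 (-0.26), which act together in the receptor complex for norrin. That value of Fzd4 is from its brightest feature, where the arrays overlapped. A dimmer feature of Fzd4 gave 0.13, with the knockout arrays all higher, and its dimmest gave 0.02. Of 6 genes that mark arteries or veins 5 were negative, and the arterial ligand Efnb2 and its venous receptor Ephb4 both had a difference of -0.30.

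Junction partners were split, 4 positive and 6 negative, with the largest values for Cgnl1, a cingulin-like protein of junctions (0.38), and the claudin Cldn3 (0.20). Among 16 other transport genes of the barrier, 10 were positive and 6 negative. Ager, the receptor for advanced glycation end products, read 6.44, 6.34 and 6.33 on the wild-type arrays and 6.67, 6.79 and 7.04 on the knockout arrays. Slc22a8, an organic anion transporter, read 7.73, 8.06 and 8.10 on the wild-type arrays and 8.21, 8.25 and 8.50 on the knockout arrays. The knockout arrays were higher for both genes at these features, with differences of 0.46 and 0.35 and limma adjusted p of 0.472 and 0.574, and array 6 was the highest for both. A second feature of Slc22a8, of similar brightness, gave -0.08, with overlapping arrays.

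Of 21 other endothelial genes 7 were positive and 14 negative, led in size by the ETS factor Fli1 (-0.33) and Nostrin, a regulator of endothelial nitric oxide synthase traffic (-0.21). For Fli1 array 6 was well below the other knockout arrays, at 6.43 against 7.03 and 6.92 on arrays 4 and 5. Of 5 tested leukocyte adhesion genes 4 were positive and 1 negative, and the largest values were those of the integrin subunit Itgb2 (0.26) and the endothelial adhesion molecule Vcam1 (-0.18). Of 18 other mural genes 6 were positive and 12 negative. The largest differences were those of the tropomyosin Tpm2 (-0.38) and smoothelin, Smtn (-0.26), both of contractile cells, and for both the knockout arrays were all lower. For Tpm2 the margin was very small, with knockout array 5 at 9.145 and wild-type array 3 at 9.149. Rgs5, a regulator of G protein signalling that marks pericytes, was singled out after its values were seen. It read 11.52, 11.56 and 11.46 on the wild-type arrays and 11.22, 11.26 and 11.34 on the knockout arrays, all lower, with a difference of -0.24 (SE 0.07, limma adjusted p = 0.479). The other 3 features of Rgs5 gave -0.16, -0.43 and -0.78, each with overlapping arrays. Of 13 basement membrane genes 9 were positive and 4 negative, with the largest values for perlecan, Hspg2 (0.22), and the laminin chain Lama5 (0.17). Array 6 was well above the other knockout arrays for both. Hspg2 read 8.32, 8.44 and 8.94 and Lama5 6.13, 6.08 and 6.52 on arrays 4 to 6, against wild-type means of 8.35 and 6.07. Of 11 genes of astrocytes, whose endfeet cover the vessels, 4 were positive and 7 negative. Aqp4, the water channel of endfeet, had a difference of -0.08, and the largest values were those of angiotensinogen, Agt (0.32), and the connexin Gjb6 (-0.26). Of 11 microglia and macrophage genes 5 were positive and 6 negative, with the largest values for Csf1r (0.22) and C1qb (-0.14).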

How the data were processed

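Total RNA was extracted with Trizol and biotin-labelled cRNA was hybridised, per the labels' protocols. The authors deposited log2 values, 1 per probe set and array; RMA and Partek were used, per the submitters' processing notes, with no version given. RMA equalises the distribution of values between arrays, and therefore hides any overall gain or loss of RNA. Scanner files and detection calls were not used here.

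Of 45101 probe sets, 64 were controls; the platform annotation gave 34945 a single gene, 932 several genes and 9160 no gene. For 34741, current symbols came by Entrez number from a RefSeq table (GRCm38.p6). The brightest probe set over 6 arrays stood for each of 18193 genes, and the 14067 genes whose brightest probe set lay above the 30th percentile of mean signal (4.70) were tested. limma 3.58.1 in R 4.3.3 fitted knockout minus wild type, with an intensity trend, two-sided, Benjamini-Hochberg adjustment over all genes and a threshold of 0.05; it was tested on simulated data. SD is over 3 arrays, and their number limits the precision. With no separate note on litters or batches, p-values measure the spread between these arrays.

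Every vascular gene is named, with Gnb5, the 2 members of largest difference in each other list and the defining markers of other cell lists; other named genes and features were chosen after their values were seen. The genes and lists were chosen with earlier results of these data known. Alternatives were other filters, the mean of probe sets or each on its own, a second normalization, array medians subtracted, other variance models, array weights, another threshold and each array left out.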

Additional observations from a re-analysis of the deposited data

How the results depend on the processing

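No vascular gene passed an adjusted p of 0.05 in limma under any alternative run; the smallest adjusted p of any of them ranged from 0.0792, for Thbd with array weights, to 0.665 without wild-type array 3. The number of genes passing over all genes was 5, and became 8 without a filter and 3 with a filter at the 50th percentile. With every probe set tested on its own, 10 of 45037 probe sets passed, which is not a count of genes. Leaving out single arrays gave 2 to 10 genes (10 without wild-type array 1, 3 without array 2 or 3, 8 without knockout array 4 and 2 without array 6). Alas2 and Slc4a1 passed without wild-type array 1, with differences of -2.61 and -2.40. The median of the barrier genes was 0.0085 with the mean of probe sets. With that choice Eng had a difference of 0.10 and Tfrc 0.031; with array weights Sox18 had -0.023 and Foxq1 0.038. Leaving out single arrays turned the sign of Kdr (-0.16 to 0.024), Esam (-0.0060 to 0.15), Foxq1 (-0.073 to 0.068), Acta2 (-0.34 to 0.0036), Tagln (-0.066 to 0.21), Abcc9 (-0.044 to 0.22), Anpep (-0.094 to 0.020), Notch3 (-0.37 to 0.044), Cldn3 (-0.033 to 0.34), Ttr (-0.93 to 0.089), F5 (-0.85 to 0.036) and Gabra6 (-0.37 to 0.020). The cause of these turns was not tested. Of 476 comparisons of a vascular gene with its alternatives, 458 kept their direction and their side of the threshold. A pseudocount was not tried, because the values were already log2. No paired analysis was possible because the genotypes share no replicate numbers.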
